A study of Mus musculus with 2 samples.

Results

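The 8 genes described here encode the kinases of SR splicing factors and a pair of SR-like splicing activators: Clk1, Clk2, Clk3 and Clk4 of the CDC2-like kinase family, Srpk1 and Srpk2 of the SR protein kinase family, and Tra2a and Tra2b, homologues of fly transformer 2. They were taken by symbol from 55536 annotated genes, and 84 of the 141864 annotated transcripts belong to them. All 8 had counts in both libraries.

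Total RNA depleted of ribosomal RNA came from the nucleoplasmic fraction of macrophages that had been grown from bone marrow of C57BL/6J mice, a common inbred strain. The cultures had received Lipid A, the Toll-like receptor 4 ligand of bacterial lipopolysaccharide, at 100 ng/ml for 12 h, had then been kept for 12 h after its removal, and were collected at 0 min of renewed stimulation. This 1 group holds 2 biological replicates from separate biosamples, prepared from 1000 ng of RNA (replicate 1) and 500 ng (replicate 2). Without an untreated or a cytoplasmic group, the values are levels in 1 state and in 1 compartment, and no condition was compared. The labels name the fraction both nuclear and nucleoplasmic, and they give neither age nor sex.

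SR proteins are splicing factors with a domain of arginine and serine repeats, and phosphorylation of that domain governs where they reside and how they act. SRPK1 and SRPK2 work mainly in the cytoplasm, where they phosphorylate SR proteins for import, whereas the CLK kinases act in the nucleus and release SR proteins from nuclear speckles. TRA2A and TRA2B bind GAA-rich RNA and activate exons. The genes of both families are known to regulate themselves through their own splicing: CLK pre-mRNAs are known to keep the introns on both sides of exon 4 and to skip that exon, and the Tra2 genes hold an exon within intron 1 that introduces stop codons, a poison exon. Transcripts with a retained intron are often kept in the nucleus, and those with an early stop codon can be degraded by nonsense-mediated decay once they are translated.

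Exon 4 of the CLK genes is printed first, since retention of its flanking introns and its omission account for much of their RNA. Positions are those of mm10 in the GENCODE M21 annotation, numbers of exons refer to 1 complete coding transcript of each gene (Clk1-201, Clk2-202, Clk3-201 and Clk4-201, each of 13 exons), and the sequences come from the annotated transcript, named first on each line, that retains introns 3 and 4. Capitals mark exon 4, with 20 bases of intron on each side in lower case.
Clk1-204, chr1:58420101-58420231, minus strand: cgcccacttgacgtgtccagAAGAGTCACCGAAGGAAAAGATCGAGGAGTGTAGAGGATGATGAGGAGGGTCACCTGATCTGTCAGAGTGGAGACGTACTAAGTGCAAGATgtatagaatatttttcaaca
Clk2-207, chr3:89169598-89169722, plus strand: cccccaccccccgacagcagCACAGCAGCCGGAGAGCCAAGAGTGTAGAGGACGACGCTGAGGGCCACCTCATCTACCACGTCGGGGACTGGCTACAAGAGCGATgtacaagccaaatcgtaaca
Clk3-203, chr9:57758607-57758743, minus strand: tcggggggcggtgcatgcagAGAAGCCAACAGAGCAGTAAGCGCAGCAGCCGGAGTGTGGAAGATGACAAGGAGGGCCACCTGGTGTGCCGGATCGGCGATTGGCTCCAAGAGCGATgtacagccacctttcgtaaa
Clk4-213, chr11:51273058-51273188, plus strand: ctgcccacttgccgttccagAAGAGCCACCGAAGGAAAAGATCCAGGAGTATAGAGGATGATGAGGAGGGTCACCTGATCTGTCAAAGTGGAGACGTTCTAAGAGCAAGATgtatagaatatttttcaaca
Exon 4 has 91 bases in Clk1 and Clk4, 85 in Clk2-202 and 97 in Clk3, and none of these lengths is a multiple of 3, so that its omission shifts the reading frame in all 4 genes. Clk1 and Clk4 share 93.4% of aligned bases in exon 4, and the 20 bases of intron 4 printed after it are identical in this pair. The other 5 pairs share between 59.3% and 65.3%. The following lines show where the frame ends when exon 3 is joined to exon 5 in Clk1-210 and Clk2-204, transcripts annotated as targets of nonsense-mediated decay. Capitals mark the last 15 bases of exon 3 and then the stop codon, and each position spans the removed introns.
Clk1-210, chr1:58419713-58421097, minus strand: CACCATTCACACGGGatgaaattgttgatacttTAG
Clk2-204, chr3:89168909-89170060, plus strand: AGCCGCTCATCTTCAatgaaattgTAA
The stop codon TAG of Clk1-210 begins 18 bases after the joint and TAA of Clk2-204 begins 9 bases after it. In Clk3-209, the decay form of Clk3 without exon 4, TGA begins 87 bases after the joint. It ends 94 bases before the last joint of that transcript. The decay forms of Clk4 are not shown.

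The poison exons of the Tra2 genes are printed because transcripts that hold or overlap them took a large part of Tra2 TPM. In Tra2b little of this was Tra2b-206, which reads through the exon to the last exon. It held 2.67% of Tra2b TPM in replicate 1 and 5.79% in replicate 2. Each line begins with the last 15 bases of exon 1, runs on into the exon within intron 1 and ends at the stop codon in capitals.
Tra2a-202, chr6:49252965-49263852, minus strand: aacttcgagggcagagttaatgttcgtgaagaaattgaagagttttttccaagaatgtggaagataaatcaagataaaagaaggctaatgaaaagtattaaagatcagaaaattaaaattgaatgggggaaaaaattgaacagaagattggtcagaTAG
Tra2b-206, chr16:22259181-22265755, minus strand: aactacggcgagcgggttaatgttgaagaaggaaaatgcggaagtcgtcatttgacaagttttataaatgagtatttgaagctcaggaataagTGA
The whole exon has 306 bases in Tra2a (chr6:49252803-49253108) and 276 bases in Tra2b (chr16:22258986-22259261), and the pair shares 59.6% of aligned bases. The stop codon TAG begins 141 bases into the exon of Tra2a-202 and TGA begins 78 bases into that of Tra2b-206. No reading frame through either whole exon is free of a stop codon. GAA, the core of the sequence that TRA2 proteins bind, was searched without overlap on the transcript strand: it occurs 32 times in the Tra2a exon and 28 times in the Tra2b exon. Among 8412 exons of 276 to 306 bases in transcripts of protein-coding genes the median was 5, and 0.0594% (5 exons) held at least 28. The length window and this cut were taken from the Tra2 exons themselves, so the percentage is a description only. On the other strand, where the same motif reads TTC, the Tra2a exon held 2 and the Tra2b exon 0, beside a median of 4. A match of letters is not a measured binding site.

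All 8 genes were well expressed, with Clk1 highest and Clk2 lowest in the gene-level tables. Levels are TPM, a transcript abundance that divides counts by transcript length and scales each library to the same total, so that genes can be compared. Of the 8 genes, 8 reached a TPM of 10 in both libraries, as did 19.7% of the 22028 annotated protein-coding genes. Their median was 42.3 TPM ± 3.64 (SD, n = 2), beside 9.24 TPM over the 9791 protein-coding genes that reached a TPM of 1 in each library, called expressed here.

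Among the nuclear kinases, Clk1 had 79.5 TPM in replicate 1 and 84.0 in replicate 2, a mean of 81.7 ± 3.19 (SD, n = 2) that exceeded 95.7% of expressed genes. Clk4, the closest relative of Clk1, had 47.8 and 52.1 TPM. Clk3 had 31.5 and 37.6 TPM. Clk2 had 21.5 and 24.8 TPM, above 77.9% of expressed genes. The ranges of the 4 CLK genes over the libraries did not overlap, so their order held in both.

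Of the kinases that act mainly in the cytoplasm, Srpk1 had 25.2 TPM in replicate 1 and 29.8 in replicate 2. Srpk2 had 22.6 and 30.3 TPM. The ranges of this pair overlapped, and that of Srpk2 also overlapped that of Clk2. Of the splicing activators, Tra2a had 57.4 and 59.1 TPM and Tra2b had 53.5 and 58.1 TPM, again with overlapping ranges. Both Tra2 genes lay between Clk1 and Clk4 in level in the gene-level tables.

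**Figure D1:**
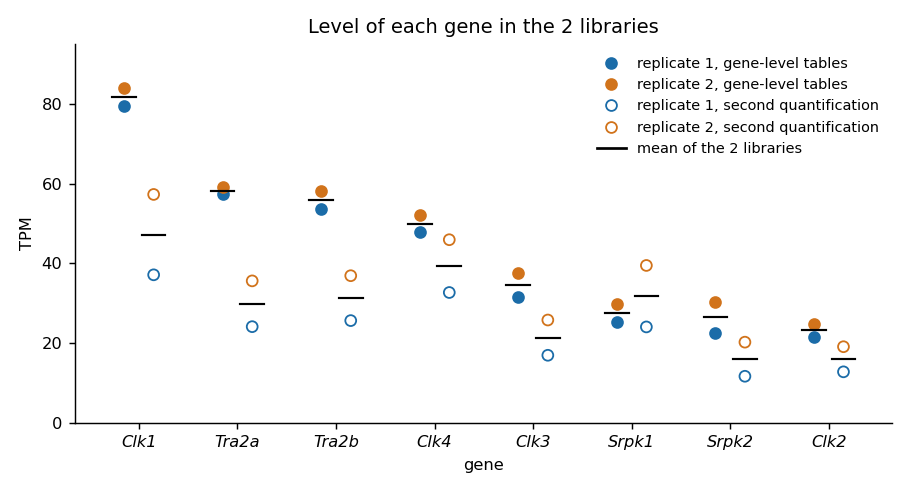
TPM (vertical axis) of each gene (horizontal axis, by falling mean), with filled points for the gene-level tables, open points for the second quantification, colours for replicates 1 and 2 and black lines for means. Clk1 is highest in both libraries under both, and the open points lie below the filled ones except for Srpk1 in replicate 2, where 39.5 TPM stands against 29.8 TPM.

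A further deposited quantification, made straight from reads and called the second quantification here, gave lower TPM for most genes. Over expressed protein-coding genes the median ratio of second to gene-level TPM was 0.558 in replicate 1 and 0.751 in replicate 2, and over the 8 genes it was 0.526 and 0.684. Clk1 was again highest, with 37.1 and 57.3 TPM. Clk4, with 32.7 and 45.9 TPM, lay above Tra2a (24.1 and 35.6) and Tra2b (25.6 and 36.9). That order is the reverse of the one in the gene-level tables. Srpk1 had the highest of the 8 ratios, 0.954 and 1.32, at 24.0 TPM in replicate 1 and 39.5 in replicate 2. A single short transcript, Srpk1-207 of 516 bases, held 10.3 and 17.8 TPM of these, against 2.21 and 1.77 TPM in the first transcript tables. All 8 genes stayed at or above a TPM of 10 in both libraries.

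The libraries differed little in these genes. Srpk2 had 2190 counts in replicate 1 and 2512 in replicate 2, which gave the largest difference, a log2 ratio of replicate 2 over replicate 1 of 0.45 (95% counting interval 0.37 to 0.54) after TMM scaling. Clk3 was the only 1 of the 8 with a scaled count ratio below 0, from 2178 counts in replicate 1 and 1677 in replicate 2, at a log2 ratio of -0.12 (-0.21 to -0.03). Its TPM was higher in replicate 2, 37.6 against 31.5, so that its direction depends on the unit. The remaining 6 had ratios of 0.09 to 0.13. None of the 8 reached an absolute log2 ratio of 1, and 2.00% of the 10198 genes whose mean count reached 100 did. The median log2 ratio was 0.11 over the 8 genes and -0.01 over those 10198, with an SD of 0.43.

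Much of the RNA of these genes was assigned to transcripts that the annotation marks as retaining an intron. The share of a gene's TPM in transcripts of that type had a median over the 8 genes of 50.3% in replicate 1 and 53.4% in replicate 2, or 53.9% over the means of each gene, and such a median of 30.0% over the 6143 expressed protein-coding genes that have such a transcript. In both libraries the share was at least 50% for 4 of 8 genes, Clk1, Clk3, Clk4 and Srpk1, and for 15.4% of all 6143. In nuclear RNA, a transcript that keeps an intron and a pre-mRNA not yet spliced both give reads in that intron, and the tables do not tell them apart.

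In Clk1 the retained-intron share was 60.6% in replicate 1 and 52.2% in replicate 2. In Clk3 it was 53.0% and 70.6%, the widest gap between libraries among the 8. In Clk4 it was 52.5% and 60.8%. Clk2 lay on both sides of the threshold with 48.1% and 54.6%. All 4 CLK genes had means above those of at least 82.1% of the 6143 genes.

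The SRPK pair differed from each other. In Srpk1 the share was 62.2% and 60.2%, and in Srpk2 it was 44.7% and 40.6%, so that the ranges did not overlap. Their order was the same in the second quantification, with 74.5% and 76.0% for Srpk1 against 45.0% and 42.1% for Srpk2, but Srpk1-207 alone held 42.9% and 45.1% of Srpk1 there. With transcripts under 600 bases left out of the second quantification, the means were 49.2% for Srpk1 and 45.2% for Srpk2. Tra2a had 45.5% and 45.2%, and Tra2b had 40.9% and 49.1%. Even the lowest mean, that of Srpk2, exceeded the share of 70.4% of the 6143 genes.

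**Figure D2:**
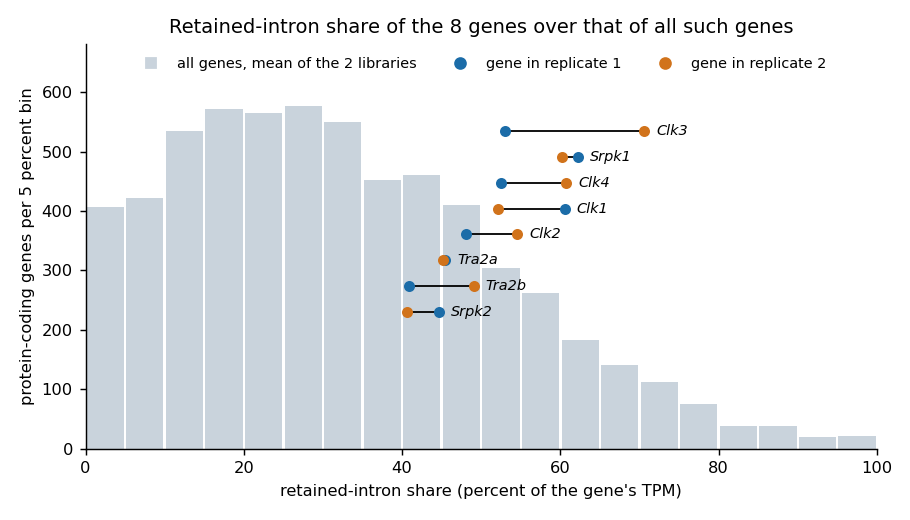
Retained-intron share in percent of TPM (horizontal axis) for the 8 genes, with a point for each library, over a histogram of 6143 protein-coding genes (vertical axis, genes per bin of 5 percent, mean of both libraries). The heights of the points only separate the genes. All points lie above the median of all genes, 30.0%, from 40.6% in Srpk2 to 70.6% in Clk3.

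Short annotated transcripts weigh on these shares, because TPM divides by length. In Clk3 the gap between libraries came with Clk3-202, of 389 bases: it had 2.20 TPM in replicate 1 and 13.5 in replicate 2, from 10.1 and 58.1 expected counts. Its bounds in the deposited tables ran from 7.48 to 18.0 TPM in replicate 2, and the second quantification also had it higher there, with 3.93 and 12.5 TPM. With transcripts under 600 bases left out, a choice made after the data were seen, the mean share was 55.1% for Clk3 and 54.7% for Srpk1. For Clk4 the mean was 42.1% in place of 56.6%, and 30.0% in the second quantification. Clk4-206, of 442 bases and left out by that choice, had 6.49 and 7.67 TPM. The shares of Clk1, Clk2 and Tra2b without such transcripts were 54.6%, 51.7% and 45.1%.

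Transcripts annotated as targets of nonsense-mediated decay took a median of 8.61% of TPM over the 8 genes, beside 3.90% over the 3050 expressed genes that have one. Tra2a had 24.4% in replicate 1 and 45.9% in replicate 2, and Clk2 had 34.7% and 23.9%, so that Clk2 was highest in replicate 1 and Tra2a in replicate 2. Next came Clk1 with 19.4% and 21%. Srpk2 had 11.6% and 8.18%, and Clk4 10.5% and 4.17%. In the second quantification the share of Clk4 was 25.2% and 18.2%. Tra2b, Clk3 and Srpk1 had at most 6.34% in either library.

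Protein-coding transcripts held a small share in Clk1, 7.37% in replicate 1 and 11.3% in replicate 2. Clk2 had 17.2% and 21.5%. In Clk3 the share was 43.9% and 26.3%, and in Clk4, Srpk1, Srpk2 and Tra2b it lay between 32.6% and 38.5% in either library. Tra2a had 30.2% in replicate 1 and 8.98% in replicate 2, and 3.82% and 2.70% in the second quantification. Clk1 was therefore lowest of the 8 in replicate 1 and Tra2a in replicate 2, and Tra2a was lowest in both libraries of the second quantification. The type protein-coding also covers fragments, such as Clk4-202, which begins within intron 4 and had 9.97 and 11.6 TPM, and Srpk1-202, which ends within intron 2 and had 2.98 and 3.70 TPM. Clk2-210, a coding fragment of 593 bases, had 0.200 and 0.110 TPM but 2.80 and 3.59 TPM in the second quantification.

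**Figure D3:**
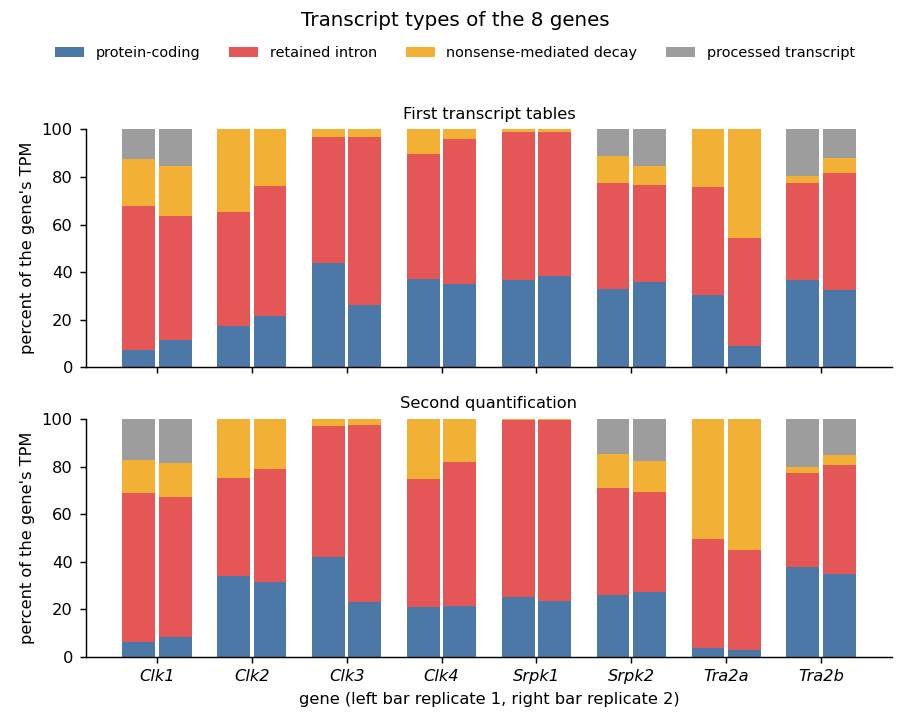
Share of each gene's TPM (vertical axis, percent) in the 4 annotated transcript types, as stacked bars for replicate 1 (left) and replicate 2 (right) of each gene, in the first transcript tables (top) and the second quantification (bottom). The protein-coding share of Clk1 is 7.37% and 11.3% in the top panel, and that of Tra2a is 30.2% and 8.98% at the top but 3.82% and 2.70% at the bottom.

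The CLK genes had in common the retention of introns 3 and 4, which flank exon 4. The 8 reference transcripts hold 92 introns, of which 22 are retained whole in an annotated transcript, and introns 3 and 4 are among these in each CLK gene. The 22 had a median length of 402 bases, against 903 over all 92. Transcripts informative about exon 4 were put in 3 classes: those that retain intron 3 or 4, those that include exon 4 with both introns removed, and those that join exon 3 to exon 5. They covered from 35.2% of the TPM of Clk4 in replicate 2 to 77.4% of that of Clk2, also in replicate 2, and the shares that follow are of their sum.

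In Clk1, intron 3 or 4 was retained in 52.2% of TPM in replicate 1 and 46.2% in replicate 2. The skipped form held 34.6% and 35.0%, and the form with exon 4 and neither intron held 13.2% and 18.8%. Clk1-204, which keeps introns 3, 4 and 6 and ends in intron 7, was the highest Clk1 transcript with 19.2 and 19.6 TPM. The other transcript of the retained class, Clk1-212, keeps only introns 3 and 4, runs to exon 13 and had 4.03 and 3.66 TPM. Most of that class was therefore a form that ends within an intron, and retention was not told apart from unspliced pre-mRNA. Clk1-210, the form without exon 4, had 15.2 and 16.8 TPM. Clk1-201, which encodes the full kinase, had 5.86 and 9.46 TPM, less than Clk1-210 in both libraries. Outside these classes, Clk1-202, a retained-intron transcript from intron 7 to exon 13, had 15.6 and 15.2 TPM. The short Clk1-209, which ends in intron 2, had 5.72 and 4.28 TPM, and Clk1-208, of the type processed transcript, had 6.25 and 8.01 TPM.

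Clk4 was close to this. Its introns were retained in 40.6% and 51.8%, exon 4 was skipped in 39.6% and 35.3%, and exon 4 was included without them in 19.8% and 12.9%. Clk4-213, the transcript behind the retained class, also keeps introns 7 and 8 and had 8.72 and 9.49 TPM. The full-length Clk4-201 had 4.13 and 2.36 TPM, and the highest decay form in the first tables, Clk4-204, had 3.76 and 1.22 TPM. Unlike in Clk1, much of the skipped class was annotated as coding in the first tables. Clk4-203, which also lacks exon 2 and has a coding sequence of 903 bases, had 3.49 and 4.29 TPM there. In the second quantification it had 2.16 and 1.85 TPM. The decay form Clk4-212, also without exon 4, had 7.62 and 3.93 TPM there, against 1.25 and 0.950 TPM in the first tables.

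In Clk2 the retained class took 33.1% and 41.9%, the skipped class 45.5% and 30.9% and the included class 21.3% and 27.2%. Clk2-204, the skipped form whose end is printed above, was the highest Clk2 transcript with 7.47 and 5.94 TPM. The next was Clk2-207, with introns 3 and 4 retained, at 4.69 and 4.54 TPM. The highest coding form, Clk2-201, had 2.01 and 2.96 TPM. Clk2-211, a retained-intron transcript of exons 7 to 12, had 3.58 and 3.56 TPM, and Clk2-208 was listed at 0 in both libraries.

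Clk3 differed from the other 3 in the skipped form. It took 4.54% in replicate 1 and 6.00% in replicate 2, while the retained class took 45.5% and 49.5% and the included class 49.98% and 44.5%. The skipped share of Clk3 lay below 30.9%, the lowest value of the other 3 genes, in both libraries. Clk3-203, which keeps introns 3 and 4, had 7.69 and 8.46 TPM. Clk3-205, a coding transcript that keeps intron 12, had 5.45 and 6.09 TPM, and the full-length Clk3-201 had 5.23 and 2.51 TPM. The single annotated skipped form, Clk3-209, is short (764 bases) and had 0.97 and 1.16 TPM.

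The second quantification moved no class by more than 3.92 percentage points in Clk1, 6.05 in Clk2 and 1.78 in Clk3 in either library. For Clk4 it gave a retained share of 23.7% and 44.3% and a skipped share of 66.4% and 47.5%. Its included share of Clk4 was 9.86% and 8.18%.

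**Figure D4:**
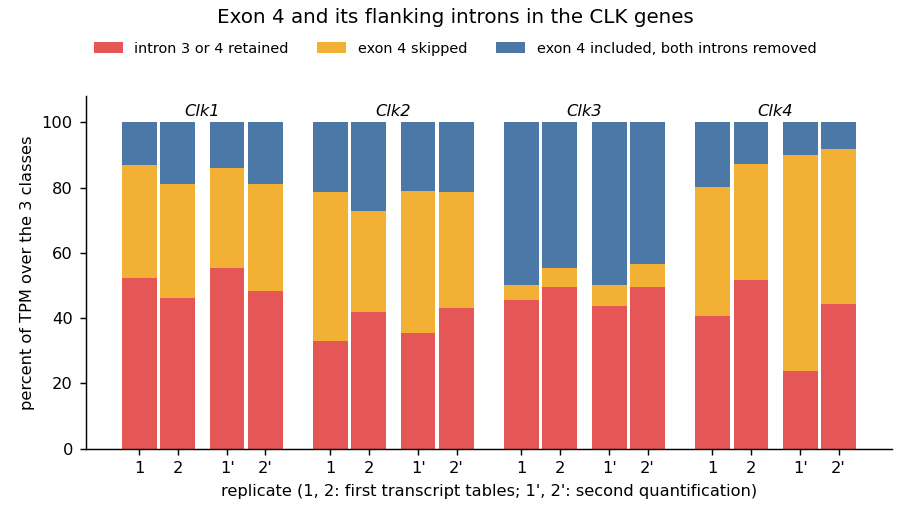
Percent of TPM over the informative transcripts (vertical axis) in the 3 exon 4 classes, for each CLK gene in replicates 1 and 2, with primes for the second quantification (horizontal axis). The skipped class is 4.54% and 6.00% in Clk3, and the class that retains an intron is between 33.1% and 52.2% in all 4 genes in the first tables.

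Introns 3 and 4 differ in size and base composition between the genes. Intron 3 has 871 bases in Clk1, 694 in Clk2, 2100 in Clk3 and 1055 in Clk4, and intron 4 has 387, 346, 276 and 391 bases. G and C make up 33.0% of intron 3 and 26.4% of intron 4 in Clk1, and 36.7% and 34.0% in Clk4. In Clk2 they make up 56.1% and 51.7%, and in Clk3 51.8% and 50%. For each intron, transcripts that keep it were set against those that join the exons on both sides of it. Forms that skip exon 4 are therefore left out for introns 3 and 4, although they lack these introns too. On that basis intron 4 was retained in 71.7% and 71.1% of TPM in Clk1 and 60.8% and 60.6% in Clk2. It was retained in 37.7% and 46.6% in Clk3 and 67.2% and 80.1% in Clk4. Of the other introns of Clk1, intron 6 (87 bases) was retained in 40.1% and 38.8%. Intron 10 was retained in 12.5% and 14.4% and intron 12 in 5.49% and 2.98%. There the spliced side includes forms without exon 4, so these shares do not compare directly with those of intron 4.

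In Srpk1 the retained intron was intron 10, of 373 bases. It was kept in 70.6% of TPM in replicate 1 and 67.2% in replicate 2, and in 67.5% and 61.5% in the second quantification. Of the transcripts behind it, Srpk1-212 runs from exon 1 to exon 16, keeps only this intron and had 6.22 and 5.21 TPM, above the coding Srpk1-204 with 3.38 and 3.79 TPM. In the second quantification Srpk1-212 had 2.63 and 2.57 TPM and Srpk1-204 had 1.67 and 2.90 TPM, so that the order turned in replicate 2. Srpk1-203 also retains intron 10 and had 1.90 and 2.55 TPM. The single decay form, Srpk1-201, had 0.300 and 0.380 TPM. Introns 9 and 14 were kept in 13.9% and 19.1% and in 16.5% and 21.7%. In Srpk2 the only intron that an annotated transcript keeps whole is intron 3, in 5.88% and 5.31%. Its retained-intron share came instead from Srpk2-203, which begins at exon 1 and ends in intron 1, with 6.20 and 6.45 TPM, and Srpk2-205, which ends in intron 5, with 3.11 and 4.86 TPM. The coding Srpk2-201 was the highest Srpk2 transcript with 7.15 and 10.5 TPM. Srpk2-210, of the type processed transcript, had 2.49 and 4.63 TPM, and Srpk2-204, the decay form, had 2.63 and 2.48 TPM. In expected counts, which do not divide by length, the retained-intron share of Srpk2 was 21.9%.

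In Tra2b, most TPM that bears on intron 1 was assigned to transcripts that hold the poison exon or overlap it. Transcripts with this exon or a longer form of it took 69.5% in replicate 1 and 72.4% in replicate 2, against 30.5% and 27.6% for exon 1 joined straight to exon 2. In the second quantification, transcripts with this exon or a longer form of it took 74.2% and 75.7%. The form that reads from exon 1 through the poison exon to the last exon, Tra2b-206, was a small part of this, with 1.43 and 3.36 TPM. Tra2b-203, which joins exon 1 to the poison exon and ends in the intron behind it, had 16.6 and 22.4 TPM and was the highest Tra2b transcript. Tra2b-204, which encodes the full protein, had 12.6 TPM in each library. Tra2b-202, which begins before the poison exon and ends in exon 3, had 10.6 and 6.94 TPM. Tra2b-203 and Tra2b-202 also hold intron 1 sequence beside the poison exon, so inclusion of that exon was not told apart from unspliced intron 1. Tra2b-201, a coding transcript that begins in intron 1 just before exon 2, had 7.07 and 6.39 TPM.

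In Tra2a the assignment between the coding and the poison exon form was unstable. Tra2a-202, with the poison exon, had 13.98 TPM in replicate 1 and 27.1 in replicate 2, while Tra2a-201, which differs from it mainly by the lack of that exon, had 12.7 TPM in replicate 1 and is listed at 0 in replicate 2. Their sum was 26.7 and 27.1 TPM. The second quantification listed Tra2a-201 at 0 in both libraries and Tra2a-202 at 12.2 and 19.6 TPM. Over transcripts that hold the poison exon or join exon 1 to exon 2, the share with the poison exon was therefore 40.5% and 77.4% in the first tables. In the second quantification it was 82.9% and 88.4%. These transcripts covered 60.2% and 59.3% of Tra2a TPM in the first tables. Of all Tra2a TPM, Tra2a-202 held 24.4% and 45.9%, and 50.7% and 55.2% in the second quantification. Of the coding forms only Tra2a-204, which also lacks the exon, had a value above 0 in every table, with 4.61 and 5.31 TPM. Tra2a-203, a retained-intron transcript of 3788 bases that runs from exon 1 into intron 1 and ends before the poison exon, had 22.8 and 24.1 TPM.

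**Figure D5:**
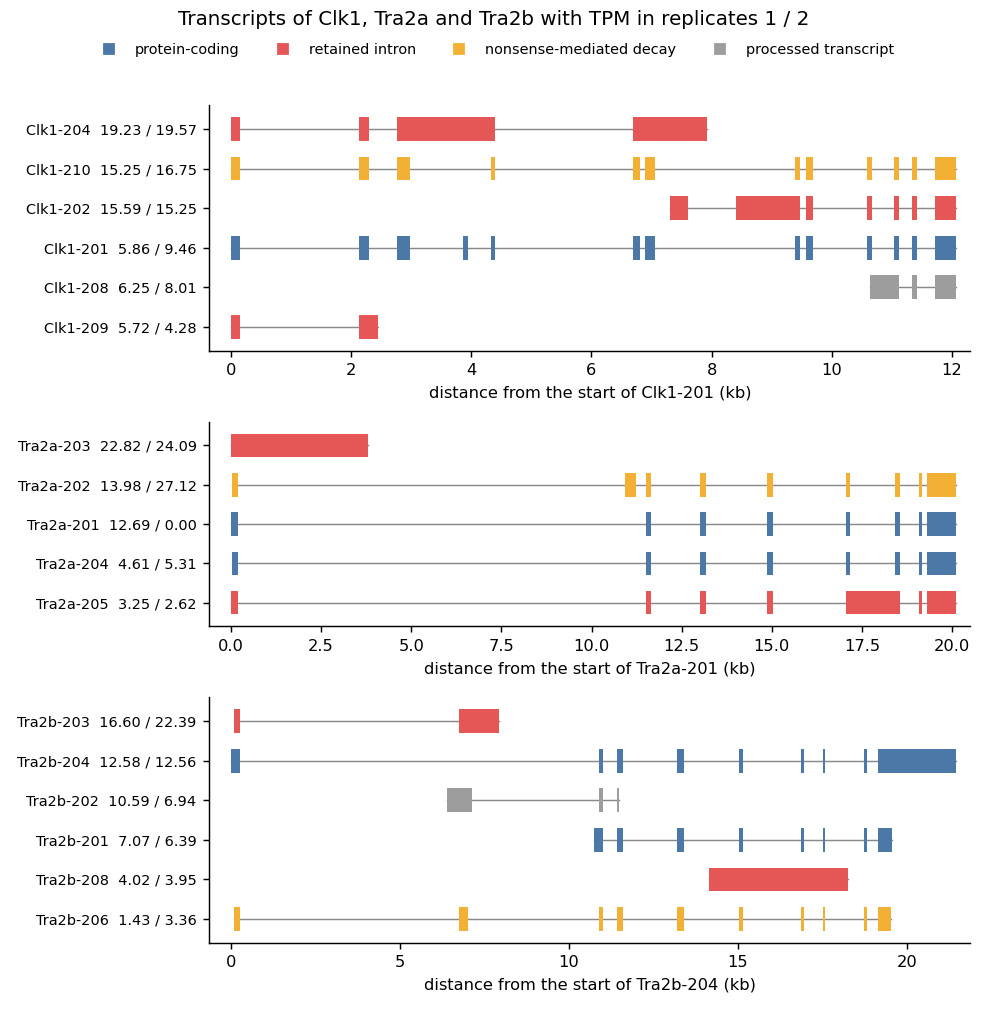
Exons (boxes, to scale) and introns (lines) of the transcripts of Clk1, Tra2a and Tra2b with the highest mean TPM, by distance in kb from the start of a coding transcript (horizontal axis), coloured by annotated type, with TPM in replicates 1 and 2 beside each name. Clk1-210 lacks the exon 4 box of Clk1-201, and the poison exon is the second box of Tra2a-202 and of Tra2b-206.

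The substrates and partners of these kinases were expressed beside them. Of 11 SR protein genes 10 reached a TPM of 10 in both libraries, beside 19.7% of annotated protein-coding genes. The list was led by Srsf5 at 224 ± 12.8 TPM (SD, n = 2), and Srsf12 was listed at 0. The median retained-intron share of the 8 expressed SR protein genes that have such a transcript was 50.2%. All 9 SR-related genes reached that level, from Rnps1 at 22.4 ± 4.14 TPM to Son, a speckle scaffold, at 183 ± 2.84 TPM, with a median share of 39.2%. Of 9 other kinases that act on splicing factors 6 did, led by Prpf4b at 68.0 ± 1.80 TPM, and Dyrk3 was lowest at 0.130 ± 0.113 TPM. Srpk3, the remaining member of the SRPK family, had 1.72 and 1.26 TPM. Their median share was 23.2%, over 5 genes.

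Of 4 genes of phosphatase 1 subunits, 3 reached a TPM of 10 in both libraries, from Ppp1r8 at 5.61 ± 0.453 to Ppp1cc at 30.9 ± 2.86 TPM (SD, n = 2). Both import receptor genes did, Tnpo1 at 20.3 ± 0.127 TPM and Tnpo3, which carries phosphorylated SR proteins into the nucleus, at 24.3 ± 0.325 TPM. Of 8 genes of nonsense-mediated decay 4 did, from Upf3a at 6.04 ± 0.318 to Smg1 at 68.9 ± 0.0778 TPM. Of 4 genes of nuclear RNA decay 3 did, from Exosc10 at 9.60 ± 1.54 to Zfc3h1 at 53.2 ± 11.1 TPM. The median retained-intron shares of these 4 lists lay between 21.3% and 31.5%, beside 30.0% over the 6143 expressed genes that have such a transcript. Among the genes of these lists whose mean count reached 100, none was apart between the libraries by a log2 ratio of 1. Over all 10198 genes of that mean count 2.00% were, so a count of none in short lists says little.

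By profile of transcript types, the genes most like the members were found among 4500 expressed protein-coding genes with at least 3 annotated types. The measure was the sum of absolute differences in the shares of protein-coding, retained-intron, nonsense-mediated decay and other transcripts, averaged over both libraries, in percentage points. Srpk1 had the closest match, Gnb4 at 2.46 points, followed by Nudcd1 at 3.76 and Strn4 at 4.18. Clk4 was closest to Rasal3 at 4.46, Pbx3 at 4.81 and Ccdc28b at 4.88, and Clk3 to Gramd1a at 4.68 and to Taf6l and Crtc1, each at 6.16. Clk2 was closest to Guf1 at 6.22, Recql5 at 7.57 and Commd2 at 9.68, and Srpk2 to Zfp280d at 9.86, Rb1cc1 at 10.7 and Ppp4r3a at 12.9. Tra2b was closest to Cinp at 10.3, Psmc6 at 10.8 and Inpp5k at 11.8, and Tra2a to Tubgcp2 at 12.9, Tatdn1 at 14.0 and Commd4 at 14.5. Clk1 had the most distant nearest genes of the 8, Msh3 at 17.8, Mtch2 at 18.5 and Catsperg1 at 20.6.

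Annotated genes held 22907877 expected counts in replicate 1 and 18612405 in replicate 2, of which the 8 genes held 20290 and 18555, or 0.0886% and 0.0997%. All 8 macrophage markers reached a TPM of 10 in each library, and all 22 markers of other blood and stromal cells were under 1 in both, with summed levels of 2.76 and 2.62 TPM against 2781 and 2250 TPM. Of the 22, 5 were at 0 in both. Each macrophage marker had a log2 ratio of replicate 2 over replicate 1 below 0, from -0.21 in Adgre1 to -1.04 in Fcgr1. The use of strand in counting is not given in the sources used here, which bears on genes with an antisense neighbour. Stretches of 50 bases shared with a transcript of the opposite strand made up 13.8% of Clk3 (Edc3) and 7.69% of Srpk2 (Kmt2e). Edc3 had 621 and 435 counts, and Gm43980, antisense to Tra2a, had 892 and 800. The genes that overlap Srpk2 are Kmt2e and, on the same strand, Gm24009 and Gm43566. They had 4163 and 3766 counts, against 2190 and 2512 for Srpk2 itself. Stretches shared with another gene on the same strand made up 7.77% of Tra2b and 2.55% of Srpk1, and no such stretch was shared among the 8 genes.

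In mm10, Clk1 (ENSMUSG00000026034.17) lies on chromosome 1 from 58410189 to 58424066 on the minus strand. Clk2 (ENSMUSG00000068917.12) lies on chromosome 3 from 89164795 to 89176921 on the plus strand. Clk3 (ENSMUSG00000032316.8) lies on chromosome 9 from 57750624 to 57765860 on the minus strand. Clk4 (ENSMUSG00000020385.16) lies on chromosome 11 from 51261730 to 51281766 on the plus strand. Srpk1 (ENSMUSG00000004865.16) lies on chromosome 17 from 28587648 to 28622709 on the minus strand. Srpk2 (ENSMUSG00000062604.11) lies on chromosome 5 from 23503264 to 23684617 on the minus strand. Tra2a (ENSMUSG00000029817.11) lies on chromosome 6 from 49243924 to 49264033 on the minus strand. Tra2b (ENSMUSG00000022858.16) lies on chromosome 16 from 22244549 to 22266005 on the minus strand.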

How the data were processed

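Ribosomal RNA-depleted libraries of nucleoplasmic RNA were analysed for 2 replicates of 1 group, taken from the labels. The deposited gene-level and first transcript tables hold expected counts and TPM, which the authors derived from alignments to the transcriptome, according to notes deposited beside them. The deposited second quantification holds estimated counts and TPM made straight from reads. Assembly mm10 and GENCODE M21 come from the same deposited notes. Programs, versions and strand use were not given in the sources used here.

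The 26345 entries that name no annotated gene (1.01% and 0.336% of counts) were left out of library sizes. Transcript types, exons and sequences come from GENCODE M21. A retained-intron or decay share is the percent of a gene's transcript TPM in that annotated type. A transcript retains an intron if 1 exon spans it whole. Each gene's reference is its coding transcript in the CCDS set with the longest coding sequence. Expected counts were rounded and scaled by TMM in edgeR 4.0.16 (R 4.3.3), with a prior count of 0.5; DESeq2 1.42.0 gave an alternative. With 1 group no p-value was computed. Intervals are exact (Clopper-Pearson) 95% intervals and cover counting error only. An SD over 2 libraries is imprecise, and the libraries differed beyond counting error (chi-square of 70.6 per degree of freedom over 14892 genes), so both were kept. Share and ratio code was tested on simulated data. Python 3.11.15, pandas 2.3.3, numpy 2.4.6, scipy 1.17.1 and Biopython 1.88 were used.

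Named were all 8 genes, their transcripts with at least 10% of TPM in both libraries of either quantification, the highest of each type, the highest and lowest gene of each list and the 3 nearest genes by type profile. Srpk3 and other transcripts that bear on the exon classes were named after their values were seen. Of the 6 symbols listed for nuclear RNA decay, 4 matched. The genes and lists were chosen with earlier results of these data known.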

Additional observations from a re-analysis of the deposited data

How the results depend on the processing

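The count of 8 genes at a TPM of 10 and the count of 0 genes apart between libraries were the same under each alternative run for them: other scalings, a log2 ratio of 0.5, a mean count of 50, the second quantification and TPM over protein-coding genes only. The median retained-intron share of 53.9% was 50.9% in the second quantification, where the median over all such genes was 35.1% in place of 30.0%. It was 60.5% in expected counts, a unit for which the median over all such genes is not given here. It ranged from 50.3% to 53.4% when 1 library was left out. The median decay share of 8.61% was 14.0% in the second quantification, where that over all such genes was 7.77% in place of 3.90%. The number of genes at 50% or more in both libraries was 4 of 8, beside 15.4% of all 6143 such genes. It was 6 in expected counts and 5 in replicate 2 alone. For those 2 settings the share over all such genes is not given here, so a general rise cannot be told apart. No log2 ratio changed sign under any scaling or in the second quantification, where Srpk2 had 0.35. With 2 libraries, leaving out 1 moves a mean by less than their SD, so for a mean it says nothing on stability. A median over genes is not bound in this way. That of the retained-intron share was 50.3% without replicate 2 in place of 53.9%, a move beyond its SD of 2.17 between the libraries. Transcript shares rest on model assignment of reads that several transcripts share, and Tra2a shows its limit. No paired analysis was possible because the series has 1 group.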
